A study of Mus musculus with 4 samples.

Results

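The caudal ganglionic eminence (CGE), a ventral swelling of the embryonic forebrain known as a source of inhibitory interneurons, also gave a small set of cells that carried genes of excitatory neurons. These were the 108 of 3248 quality-filtered CGE cells, out of 16544 filtered cells in the whole series, that met a glutamatergic gate. The name is that of the gate: 10 of the 108, described below, carried a GABAergic gene and neither of the glutamatergic genes Tbr1 and Slc17a6. Members were chosen by measured values: a member had ln(1 + UMIs per 10000) of Dcx above 1.5 and at least 1 UMI (unique molecular identifier, a counted RNA molecule) of Neurod6 or Neurod2. Dcx encodes doublecortin, a microtubule protein of young neurons, and Neurod6 and Neurod2 are basic helix-loop-helix (bHLH) transcription factors of pallial glutamatergic neurons. Since these 3 genes chose the cells, their levels are a description only. Cells of CTX (the dorsal cortex), LGE and MGE (the lateral and medial ganglionic eminences) that met the same gate numbered 756, 32 and 1.

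Single-cell RNA sequencing (10X Genomics droplets) was carried out on wild-type C57BL/6 mice at E12.5 (embryonic day), with 1 library for each region from tissue pooled over embryos. All groups compared here share the genotype, the age and the absence of any treatment. The CGE library held 4301 barcodes and 31451467 UMIs, and the other 3 libraries held 6235 to 6953 barcodes and 45666127 to 49794765 UMIs. With 1 library for a region there were no replicates, no test between groups was possible, and region and library cannot be told apart. All intervals are exact 95% intervals (Clopper-Pearson for shares, Poisson for levels) that cover counting error only. Any pair of libraries shared at most 15 barcodes. The labels give a sort for live cells, the published methods give none for wild type, and a sort can set shares of cells.

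The telencephalon is divided into a dorsal pallium, which generates glutamatergic neurons, and a ventral subpallium, which generates GABAergic neurons through Dlx and Gad genes. Glutamatergic neurons arise through a cascade of Neurog2, Eomes, Neurod and Tbr1 factors, and they load glutamate into vesicles by the transporters encoded by Slc17a6 and Slc17a7. The pallium borders the CGE, and parts of the amygdala at this border are built from ventral pallial cells and from cells that carry Otp and Sim1, factors better known from the hypothalamus.

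RefSeq windows of 250 bases were sought for the 12 genes that stood highest in the members against both comparison groups. Of the transcription factors among them, Tfap2d and Ebf3 have a window that ends just before the start of the annotated gene. These windows are printed because the genes are among those that set the members apart, and because NEUROD-type bHLH factors are known to bind the E-box CAGATG, which was searched on both strands (as CAGATG and CATCTG). Tfap2d (ENSMUSG00000042596.7) lies on the plus strand of chromosome 1 from 19103022 to 19166346 (GRCm38, GENCODE M21), and Ebf3 (ENSMUSG00000010476.9) on the minus strand of chromosome 7 from 137193673 to 137314445. The windows are read 5′ to 3′ on the gene's strand (RefSeq, GRCm38.p6), chr1:19102772-19103021 and chr7:137314446-137314695, and capitals would mark a match.
Tfap2d: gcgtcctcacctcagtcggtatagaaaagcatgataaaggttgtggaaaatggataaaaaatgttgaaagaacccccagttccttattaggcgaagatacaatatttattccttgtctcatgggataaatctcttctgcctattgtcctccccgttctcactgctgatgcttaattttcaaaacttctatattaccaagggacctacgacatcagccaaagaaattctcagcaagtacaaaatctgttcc
Ebf3: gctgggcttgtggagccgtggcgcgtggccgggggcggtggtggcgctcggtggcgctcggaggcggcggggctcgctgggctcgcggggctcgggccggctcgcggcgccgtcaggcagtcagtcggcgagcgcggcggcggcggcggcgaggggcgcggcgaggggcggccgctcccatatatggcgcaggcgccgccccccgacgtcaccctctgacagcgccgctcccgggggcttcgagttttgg
Neither window holds the E-box. Among the 12 genes that stood highest against both comparison groups, 10 had a window, and 2 of their 13 windows (15.4%) held it, against 4745 of 32851 windows of all genes (14.4%), so the share was near that of all genes.

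The members made up 4.64% (3.82–5.57%) of the 2330 CGE high-Dcx cells. The same gate took 92.6% (90.6–94.3%) of 816 high-Dcx cells in CTX, 1.46% (0.998–2.05%) of 2198 in LGE and 0.0440% (0.00111–0.245%) of 2272 in MGE. As a background, CGE cells with high Nes (Nestin, a radial glia gene) and without high Dcx were counted. Of these, 0 of 165 had a UMI of the gate genes, which allows a share of up to 1.82% when set at 3 counts (exact upper limit 2.21%). Their median depth was 9434 UMIs against 6782.5 in high-Dcx cells. Such cells do not lack the gate genes in every library. In CTX 203 of 906 (22.4%, 19.7–25.3%) had a UMI of them, in LGE 1 of 589 and in MGE 0 of 520. The class of 182 high-Nestin cells used below also takes in 17 high-Dcx cells, of which 1 is a member. After each cell was thinned to 3000 UMIs, with 35 shallower CGE cells left out, the CGE share was 4.10% (3.32–4.99%) of 2295. The member just inside the Dcx limit had a value of 1.51 and 3 UMIs of the gate genes, and the cell just outside had 1.49 and 14 UMIs. Doublet scoring marked 6 of the 108 members, 66 of 2222 other CGE high-Dcx cells and 19 of 756 CTX gate cells.

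The gate genes themselves were sparse in many members. Neurod6 was found in 89 members, Neurod2 in 92 and both in 73. Their summed UMIs ran from 1 to 30 with a median of 6, while total UMIs ran from 3225 to 15553 with a median of 8045.5. On the scale of UMIs per 1000000 of the summed profile (CPM), Neurod6 stood at 444 CPM in the members and 1325 in CTX gate cells, and Neurod2 at 421 and 751 CPM.

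Glutamatergic genes outside the gate were present in most members. Tbr1, a T-box factor of early cortical neurons, was found in 78 of 108 members (72.2%, 62.8–80.4%), and Slc17a6 in 82 (75.9%, 66.7–83.6%). At least 1 of these genes was found in 93 members and both in 67. In the other CGE high-Dcx cells, which should lack them, Tbr1 was found in 14 of 2222 (0.630%, 0.345–1.05%) and Slc17a6 in 8 (0.360%, 0.156–0.708%), at a median depth of 6717 UMIs. After thinning, Tbr1 was found in 56.5% (46.6–66.0%) of members and 0.366% of other CGE high-Dcx cells, and Slc17a6 in 47.2% (37.5–57.1%) and 0.183%.

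The marker check did not hold for every member. Gad2, which encodes a GABA-synthesising enzyme, or Dlx5, a GABAergic lineage factor, was found in 28 members (25.9%), of which 18 also carried Tbr1 or Slc17a6. The other 10 carried neither, and each of these 10 met the gate through a single UMI. Among the 16 members with 1 gate UMI, Gad2 or Dlx5 was found in 75.0% (47.6–92.7%) and Tbr1 or Slc17a6 in 31.2% (11.0–58.7%). Among the 65 members with 5 or more gate UMIs the shares were 12.3% (5.47–22.8%) and 96.9% (89.3–99.6%). The cells with 1 gate UMI were also shallower, with a median of 5998.5 UMIs against 8419, and the part of depth in these shares was not tested.

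**Figure D1:**
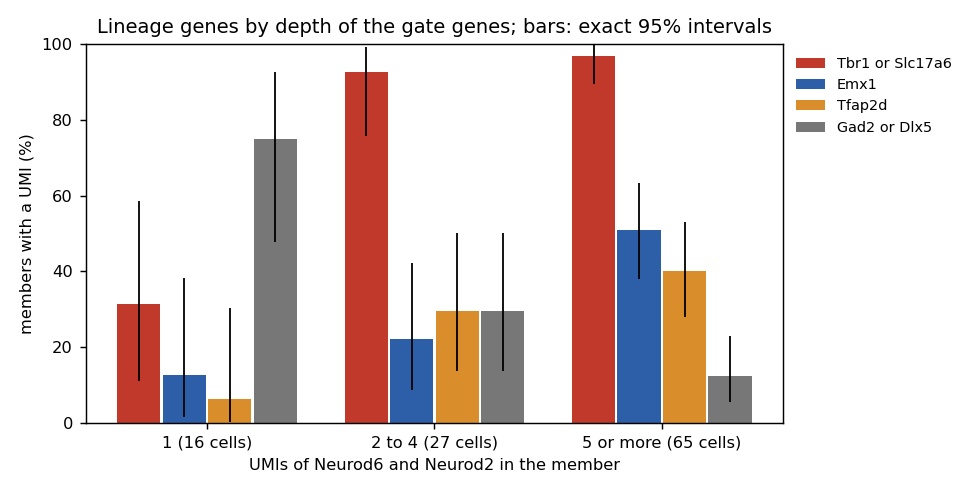
Share of members (%) with a UMI of Tbr1 or Slc17a6, of Emx1, of Tfap2d, and of Gad2 or Dlx5, for members with 1 (16 cells), 2 to 4 (27 cells) and 5 or more (65 cells) UMIs of Neurod6 and Neurod2; black lines are exact 95% intervals. The share with Gad2 or Dlx5 is 75.0% in the first group and 12.3% in the last.

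Markers of non-neural cells were almost absent from the members. Of 7 endothelial genes none had a UMI, of 7 pericyte and mesenchyme genes 2 had 1 UMI each, and of 8 microglia and macrophage genes 1 had 1 UMI. The 8 erythroid genes summed to 13 UMIs in the members, or 14.9 CPM, against 88.6 CPM in CTX gate cells and 23.3 CPM in other CGE high-Dcx cells. Of the defining genes of Cajal-Retzius cells, early reelin-secreting neurons, Reln was found in 2 members, with 19 of its 20 UMIs in 1 of them, and Trp73 in 1. The 10 genes of that list summed to 414 CPM in the members, 167 in CTX gate cells and 56.7 in other CGE high-Dcx cells, and of its 362 UMIs in the members 215 were of Nhlh2 and 59 of Ebf3.

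The first comparison asked how the members differed from cortical cells taken by the same gate. Summed UMIs were scaled to CPM, 5 CPM were added, and a gene counted as apart when the ratio was 2-fold or more. Of 4115 genes with at least 50 CPM in either profile, 219 (5.32%) were higher in the members and 150 (3.65%) were lower. The median log2 ratio over all 4115 genes was 0.04. Mapt, the axonal tau gene that marks maturing neurons, was found in 37.4% of CTX gate cells and 84.3% of members. With Mapt-positive cells alone, an alternative added after the data were seen, 212 genes were higher and 189 lower, and 160 of the 219 genes were again higher.

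Nr2f2 (COUP-TFII), a nuclear receptor known for marking caudal forebrain, had the largest ratio over CTX after 5 CPM were added. It stood at 1492 CPM in the members, 6.12 in CTX gate cells, 13.3 in LGE gate cells and 598 in other CGE high-Dcx cells, so that its level in members was 244-fold (178–343) that in CTX. It was found in 106 of 108 members, with a median of 12 UMIs in those cells and a highest value of 30, and in 12 of 756 CTX gate cells. Its relative Nr2f1 (COUP-TFI) was found in every member, at 2425 CPM against 420 in CTX gate cells, a ratio of 5.77 (5.45–6.11).

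Of the 12 genes with the largest ratios over CTX, 4 were within 2-fold of the members in the other high-Dcx cells of the CGE library. Tshz2, a zinc finger factor, stood at 189 CPM in members, 2.30 in CTX gate cells and 197 in other CGE high-Dcx cells. Pbx3, a homeodomain cofactor, stood at 133, 3.06 and 141 CPM. Thsd7a stood at 96.0, 0.612 and 63.6 CPM, and Fign, which encodes a microtubule-severing enzyme, at 138, 1.53 and 93.3 CPM. Ebf1, an early B-cell factor family member, stood at 266, 7.96 and 119 CPM, Mctp1 at 133, 1.68 and 28.2 CPM, and Arl4a, a small GTPase, at 117, 2.60 and 41.2 CPM, each more than 2-fold above both profiles. In the 32 LGE gate cells Pbx3 stood at 350 CPM and Fign at 244 CPM, above the members. Ebf1 was found in 23 of these cells (71.9%) at 319 CPM, near its level in the members. Of these 32 cells 12 were marked as predicted doublets, whose part in these levels was not tested. Nrxn3 (neurexin 3) stood at 160 CPM, between 6.58 in CTX and 1070 in the other CGE high-Dcx cells.

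The transporters separated the gates. Slc17a7, which encodes VGLUT1, had 1 UMI in the members and stood at 88.3 CPM in CTX gate cells, a ratio of 77.3 with a counting interval of 13.8 to 3058. Slc17a6, which encodes VGLUT2, stood at 265 CPM in the members and 108 in CTX, 2.46-fold (2.11–2.86) higher in the members. Slc17a7 stood at 22.1 CPM and Slc17a6 at 177 CPM in the LGE gate cells.

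Lists of cortical genes went both ways against CTX. The nuclear factor I genes Nfib and Nfix, which act in cortical neuron differentiation, stood at 391 and 170 CPM in members against 3762 and 1640 in CTX, which is 9.62-fold (8.65–10.7) and 9.63-fold (8.19–11.4) lower. Lhx2, a LIM homeodomain selector of the cortex, stood at 117 against 748 CPM, and Fezf2, a zinc finger factor of deep-layer neurons, at 62.9 against 315 CPM. Emx1, a dorsal pallial homeobox gene, was 105 against 192 CPM and so within 2-fold, and was found in 41 of 108 members (38.0%, 28.8–47.8%) against 71.7% (68.3–74.9%) of CTX gate cells (23.1% and 43.7% after thinning). Of 11 deep-layer and subplate genes 7 passed the level filter, of which 5 were lower and none higher, with a median log2 ratio of −1.62. The dorsal pallium list had 2 of 5 measured genes lower, 3 within 2-fold and none higher. Of 3 measured genes of the upper cortical layer list 2 were higher and none lower, with a median log2 ratio of 1.20. These were the POU factor genes Pou3f2, at 80.0 against 31.5 CPM, and Pou3f3, at 169 against 70.7 CPM. Of the pair, Pou3f2 passed the level filter only through the members. Pou3f2 is also counted in the medial amygdala and hypothalamic list below. Over all genes compared with CTX, 5.32% were higher and 3.65% lower.

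Other genes were among the 12 lowest against CTX. Cnr1, the cannabinoid receptor gene, stood at 46.9 against 545 CPM, Cabp1, a calcium-binding protein gene, at 13.7 against 250 CPM, and Slc30a10, a metal transporter gene, at 6.86 against 117 CPM. Tuba4a, a tubulin gene, had no UMI in the members and 77.6 CPM in CTX, which makes it at least 22.6-fold lower when the members are set at 3 UMIs. Kcna1, a potassium channel gene, was at least 14.6-fold lower in the same way. Tiam2 and Ttc39b had 3 UMIs each in the members against 86.4 and 79.3 CPM. The transcript Gm11266, which had no UMI in the members, overlaps Nfib on the opposite strand, so its count is uncertain.

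The upstream bHLH and T-box cascade was mixed. Neurog2 stood at 178 CPM in members and 219 in CTX gate cells, Neurod1 at 214 and 218 CPM, and Tbr1 at 334 and 323 CPM, all within 2-fold. Eomes, the factor of intermediate progenitors, stood at 70.9 against 334 CPM, and Bhlhe22 at 91.5 against 295 CPM. With Nhlh1 these were the 3 of 7 measured genes that were lower, beside 3.65% of all genes. Nhlh2 stood higher, at 246 against 63.7 CPM, 3.86-fold (3.26–4.56). Neurog2 was concentrated in 20 members, with 35 UMIs in 1 cell, whereas Neurod1 was spread over 64.

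**Figure D2:**
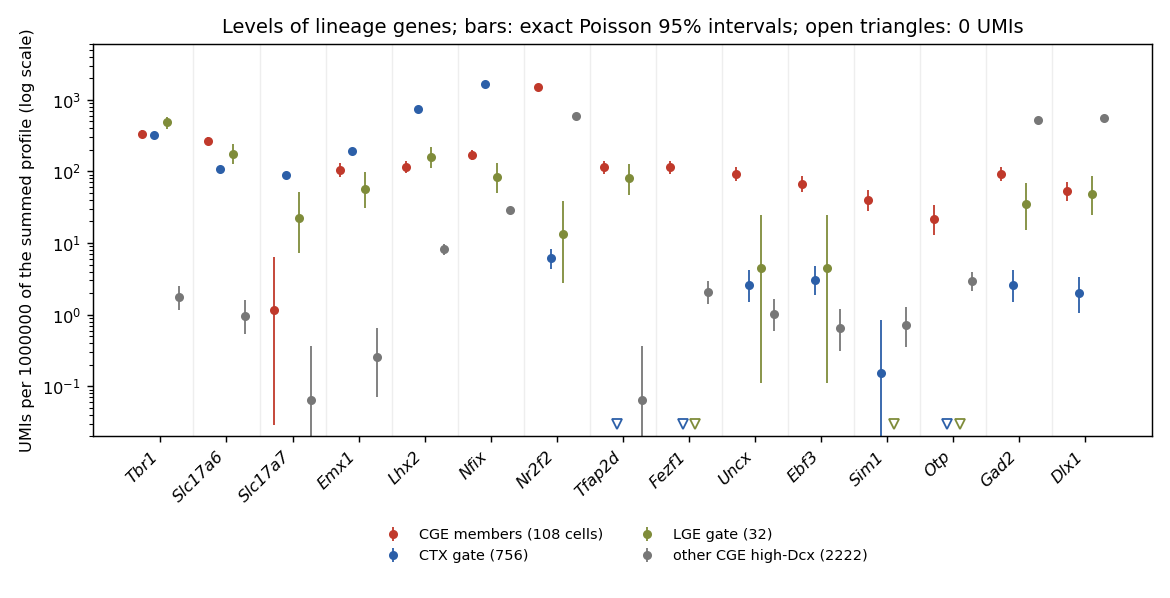
Levels of 15 lineage genes as UMIs per 1000000 of the summed profile (log axis) in the 108 CGE members, 756 CTX gate cells, 32 LGE gate cells and 2222 other CGE high-Dcx cells; points with exact Poisson 95% intervals, open triangles for 0 UMIs, intervals cut at the lower edge. Nr2f2, Fezf1, Uncx, Ebf3, Sim1 and Otp are highest in the members, Slc17a7, Emx1, Lhx2 and Nfix in CTX gate cells, and Gad2 and Dlx1 in other CGE high-Dcx cells.

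The second comparison set the members against the other high-Dcx cells of the same library, which removes any difference between libraries. Of 4064 genes compared, 137 (3.37%) were higher in the members and 101 (2.49%) were lower, with a median log2 ratio of −0.01 over all of them. With the gate genes left out, all 6 pallial cascade genes that passed the level filter were higher. Tbr1, Nhlh2, Neurod1 and Neurog2 were far under 50 CPM in the other CGE high-Dcx cells. They passed the filter only through the members, so this count is a description only. Tbr1 stood at 334 against 1.74 CPM, Slc17a6 at 265 against 0.969, Nhlh2 at 246 against 0.840, Neurod1 at 214 against 1.68 and Neurog2 at 178 against 1.87 CPM. Nrn1 (neuritin) stood at 386 against 2.26 CPM, Wnt7b, a Wnt ligand gene of the pallium, at 256 against 3.62, Lhx9, a LIM homeodomain gene, at 227 against 4.59, and Emx1 at 105 against 0.258. Cacna2d1, a calcium channel subunit gene, stood at 150 against 2.58 CPM. Of 6 ionotropic glutamate receptor genes, 3 were lower in the members and none was higher, namely Gria1, Gria4 and Grik3.

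GABAergic genes were lower in the members than in these neighbours but not at the level of CTX. Of 12 measured genes of the GABAergic list, 11 were lower and none was higher, with a median log2 ratio of −2.63. Over all genes 2.49% were lower in this comparison. Gad2 stood at 91.5 CPM in the members, 516 in other CGE high-Dcx cells and 2.60 in CTX gate cells, and Dlx1 at 52.6, 553 and 1.99 CPM. Against CTX, 6 of 7 genes of the GABAergic list that passed the level filter were higher in the members, beside 5.32% of all genes. The whole list summed to only 72.7 CPM in CTX gate cells. Nearly all of these genes could therefore pass the filter of 50 CPM only through the members, and this count is a description only. Gad2 stood at 403 CPM in the 16 members with 1 gate UMI and at 39.6 CPM in the 65 with 5 or more. In the medial eminence list 5 of 6 genes were lower, among them Sst (somatostatin), with 4 UMIs in members against 461 CPM, and Maf at 6.86 against 95.3 CPM. Six3, a homeobox gene of the striatal list, stood at 22.9 against 281 CPM, Foxp2 at 6.86 against 87.3, Zfhx3 at 17.1 against 183, Sp9 at 53.7 against 453 and Sox1 at 26.3 against 291 CPM. Npy (neuropeptide Y) stood at 18.3 against 142 CPM.

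Genes apart from both profiles were then counted. Of 3866 genes at the level filter in both comparisons, 54 (1.4%) were higher in both and 10 (0.259%) were lower in both. The comparisons share the members, so these counts are not independent of each other. All 54 were again higher in both when members and CTX gate cells needed 2 gate UMIs, which left 92 members. Fewer were under other choices, 43 with the Dcx limit at 2.0, 43 with Mapt-positive cells alone, 42 with postmitotic cells and 39 with 20 CPM added in place of 5.

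Tfap2d, a transcription factor of the AP-2 family, led this set. It had 100 UMIs in the members (114 CPM, 93.0–139), none in the 756 CTX gate cells and 1 in the 2222 other CGE high-Dcx cells. Its level was at least 249-fold that in CTX gate cells when those are set at 3 UMIs. It was found in 35 of 108 members (32.4%, 23.7–42.1%), with a median of 2 and a highest value of 9 UMIs where found, and in 0 of 756 CTX gate cells, which allows a share of up to 0.397% when set at 3 counts (exact upper limit 0.487%). After thinning it was found in 21 members (19.4%). The 32 LGE gate cells also carried it, with 9 positive cells (28.1%, 13.7–46.7%) and 79.7 CPM. Tfap2d overlaps the annotated genes Gm15825 and Gm10075 on the opposite strand.

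Fezf1, a zinc finger repressor known from olfactory and hypothalamic development, had 100 UMIs in 29 members (114 CPM; 26.9%, 18.8–36.2%) and none in CTX or LGE gate cells, against 2.07 CPM in other CGE high-Dcx cells. Its highest value was 18 UMIs in 1 cell. It was also found in 10 of 182 high-Nestin CGE cells (5.49%, 2.67–9.87%), at 7.41 CPM. Uncx, a paired-type homeobox gene, was found in 42 members at 91.5 CPM, against 2.60 CPM in CTX gate cells and 1.03 in other CGE high-Dcx cells. Ebf3, a relative of Ebf1, was found in 32 members at 67.4 CPM, against 3.06 and 0.646 CPM. Fezf1 (ENSMUSG00000029697.5) lies on chromosome 6 from 23245044 to 23248362 and Uncx (ENSMUSG00000029546.11) on chromosome 5 from 139543494 to 139548179. Uncx and Ebf3 each had 1 UMI in the 32 LGE gate cells. The single MGE gate cell, a predicted doublet, held 9 UMIs of Ebf3 and 2 of Uncx.

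Other genes among the 12 furthest above both profiles were as follows. Tmem163, a zinc transporter gene, was found in 63 members at 166 CPM, against 7.5 CPM in CTX gate cells and 1.68 in other CGE high-Dcx cells, and it overlaps Mgat5 on the opposite strand. It was also found in 14 of the 32 LGE gate cells (43.8%), at 111 CPM. Sema3c, a secreted guidance cue, stood at 166, 31.1 and 5.04 CPM, and Cbln2, a secreted synapse organiser, at 138, 21 and 6.65 CPM. In LGE gate cells these last 2 genes stood at 412 and 257 CPM, above the members. Slc1a2, the glutamate transporter GLT-1, stood at 184, 25.1 and 28.2 CPM, Nkain4 at 111, 10.3 and 21.4, Klhl35 at 94.9, 8.57 and 10.6, and Synpr (synaptoporin) at 52.6, 8.42 and 6.07 CPM. The noncoding transcript Gm28050 stood at 80.0, 3.06 and 0.969 CPM, and it overlaps Gm28039 on the same strand, so its count is uncertain. In LGE gate cells Nkain4 stood at 120 CPM, near its level in the members, and Gm28050 at 159 CPM, above it. In the profile of these 32 cells 1 UMI is 4.43 CPM, and 12 of the cells were marked as predicted doublets.

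The 10 genes lower than in both profiles were led by Mpped2, a metallophosphoesterase gene. It had 8 UMIs in 7 members (9.15 CPM) against 254 CPM in CTX gate cells, 318 in other CGE high-Dcx cells and 217 in LGE gate cells. Epha4, an ephrin receptor gene, stood at 91.5 against 309 and 422 CPM, Robo2, a Slit receptor gene, at 44.6 against 208 and 113 CPM, and Efnb2, an ephrin gene, at 21.7 against 124 and 50.6 CPM. Ccnd2, a cyclin gene of dividing precursors, stood at 49.2 against 316 and 187 CPM, Zeb2 at 179 against 560 and 450, Mef2c at 33.2 against 131 and 115, and Abracl at 163 against 846 and 382 CPM. Cntfr, a cytokine receptor gene, and Dact1, a Wnt pathway gene, had 6 and 16 UMIs in the members. Against other CGE high-Dcx cells, Efnb2, Robo2, Abracl and Ccnd2 came within 2-fold under at least 1 other choice of cells or pseudocount, and so did Ccnd2 and Robo2 against CTX gate cells.

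**Figure D3:**
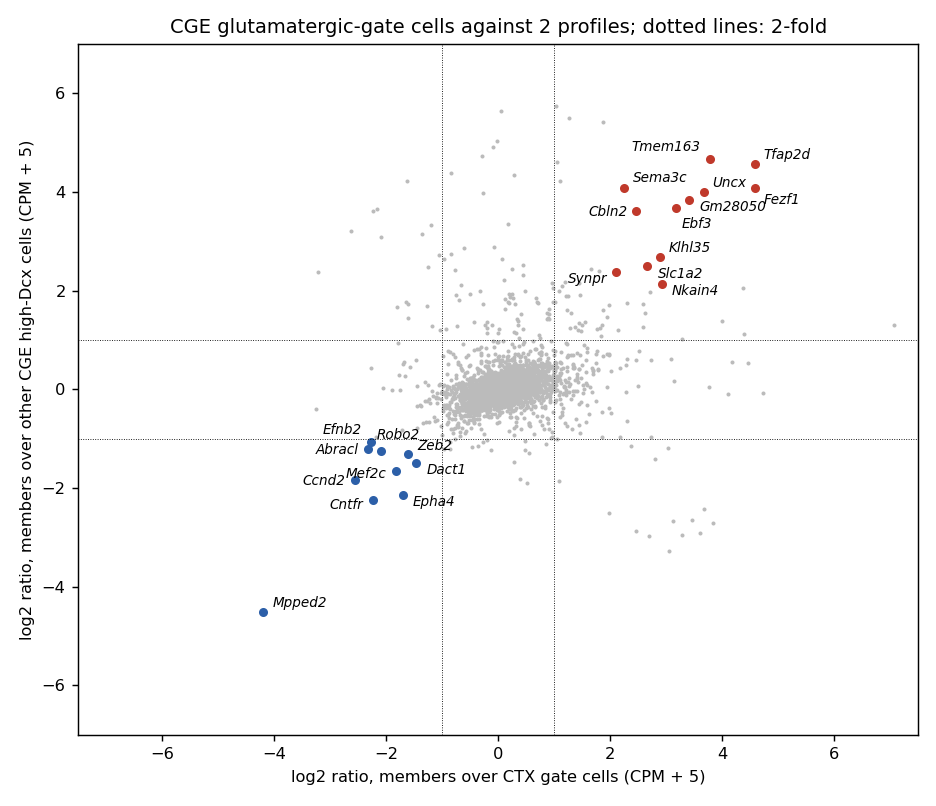
Log2 ratio of CPM + 5 in the members over CTX gate cells (x axis) and over other CGE high-Dcx cells (y axis); grey points are the 3866 genes at the level filter in both comparisons, red the 12 genes with the largest smaller ratio above both, blue the 10 genes below both, and dotted lines mark 2-fold. Tfap2d, Fezf1 and Tmem163 lie at the upper right and Mpped2 at the lower left.

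Amygdala and hypothalamic genes were then read by role. Sim1, a bHLH-PAS factor, had 35 UMIs in 16 members (14.8%, 8.71–22.9%), against 1 UMI in CTX gate cells and 8 of 2222 other CGE high-Dcx cells (0.360%, 0.156–0.708%). Otp, a homeobox factor of neuroendocrine neurons, had 19 UMIs in 3 members (2.78%, 0.577–7.90%) and 45 UMIs in 8 of the other CGE high-Dcx cells (0.360%), so most positive CGE cells lay outside the gate. In the list of medial amygdala and hypothalamic genes, all 3 of the genes that passed the level filter (Ebf3, Fezf1 and Pou3f2) were higher than in CTX gate cells. All 3 stood under 50 CPM in CTX gate cells, so they passed the filter only through the members. Against other CGE high-Dcx cells 4 genes of this list were measured, of which 3 were higher and 1, Foxp2, was lower. In the ventral pallium and amygdala list, 3 of 7 measured genes were higher than in CTX and 1 lower, and 3 were higher and 3 lower than in other CGE high-Dcx cells. The higher ones against CTX were Tfap2d, Lhx9 and Nr2f2, and the lower one was Mef2c. Of these, Tfap2d and Nr2f2 also passed the filter only through the members. Over all genes 5.32% were higher and 3.65% lower than in CTX gate cells, and 3.37% and 2.49% than in other CGE high-Dcx cells. The lists were chosen with earlier results of these data known. Ebf3, Fezf1 and Tfap2d are also among the 12 genes furthest above both profiles, so these list counts are a description only. Zic2 stood at 33.2 CPM and Barhl2, a homeobox gene of the thalamic list, at 32 CPM, under the level filter, against 1.99 and 0.766 CPM in CTX gate cells. Tcf7l2, Gbx2, Irx1 and Irx3, known from the thalamus, stayed below 20 CPM in the members and in both comparison groups. So did Dbx1 of the ventral pallium. Lhx9 is also on the thalamic list of 10 genes, where it was the 1 gene that passed the level filter, and it was higher in both comparisons.

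Cell by cell, the members were not uniform. At least 1 of Tfap2d, Uncx, Fezf1, Sim1, Ebf3 and Otp was found in 77 members. The sets below were chosen after the values were seen and carry no test. Emx1 was found in 0 of the 16 members with Sim1 (exact upper limit 20.6%) and in 41 of the 92 without (44.6%, 34.2–55.3%), at median depths of 8264.5 and 7995.5 UMIs. Uncx was found in 12 and Ebf3 in 10 of the 16 cells with Sim1, against 30 and 22 of the 92 without. Nfix was found in 12 of these 16 cells, at 479 CPM, and in 7 of the 41 members with Emx1, at 48.3 CPM. Zic2 was found in 8 of the 16 cells with Sim1 and in 1 of the 41 with Emx1. Nr2f2 was found in every cell with Sim1 or Emx1, at 1824 CPM with Sim1 and 1595 CPM with Emx1.

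Members with and without Tfap2d were set side by side. Of the 35 members with Tfap2d, Emx1 was found in 19 (54.3%, 36.6–71.2%) and Sim1 in 2 (5.71%, 0.700–19.2%), and of the 73 without it, Emx1 in 22 (30.1%, 19.9–42.0%) and Sim1 in 14 (19.2%, 10.9–30.1%), with intervals that overlap. Tbr1 was found in 33 of the 35 (94.3%, 80.8–99.3%) and in 45 of the 73 (61.6%, 49.5–72.8%). Median depth was 7988 UMIs with Tfap2d and 8103 without. The genes with the largest ratio in members with Tfap2d were of the cell cycle, and few cells carried most of their UMIs. Top2a, a DNA topoisomerase gene of dividing cells, had 97 UMIs in 6 of the 35 cells with Tfap2d and 8 UMIs in 5 of the 73 without, and 49 of its UMIs came from 1 cell. Cenpf had 89 UMIs in 2 of the 35 cells and 24 UMIs in 6 of the 73. Prc1, Spc25, Pbk, Cdk1, Cks2, Ccnb1, Ube2c and Birc5, also of the cell cycle, were found in 2 to 11 of the 35 cells. Top2a together with Mki67 was found in 5 members, of which 4 carried Tfap2d. Fezf1 stood at 69.9 CPM in members with Tfap2d and 138 CPM in those without.

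The 3 members with Otp each carried Fezf1 and Slc17a6, and none carried Tbr1, Emx1, Lhx9 or Tfap2d. Nr2f2 was found in all 3, and Ebf3 in 2. With 3 cells, a gene with no UMI in them has an exact upper limit of 70.8%.

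**Figure D4:**
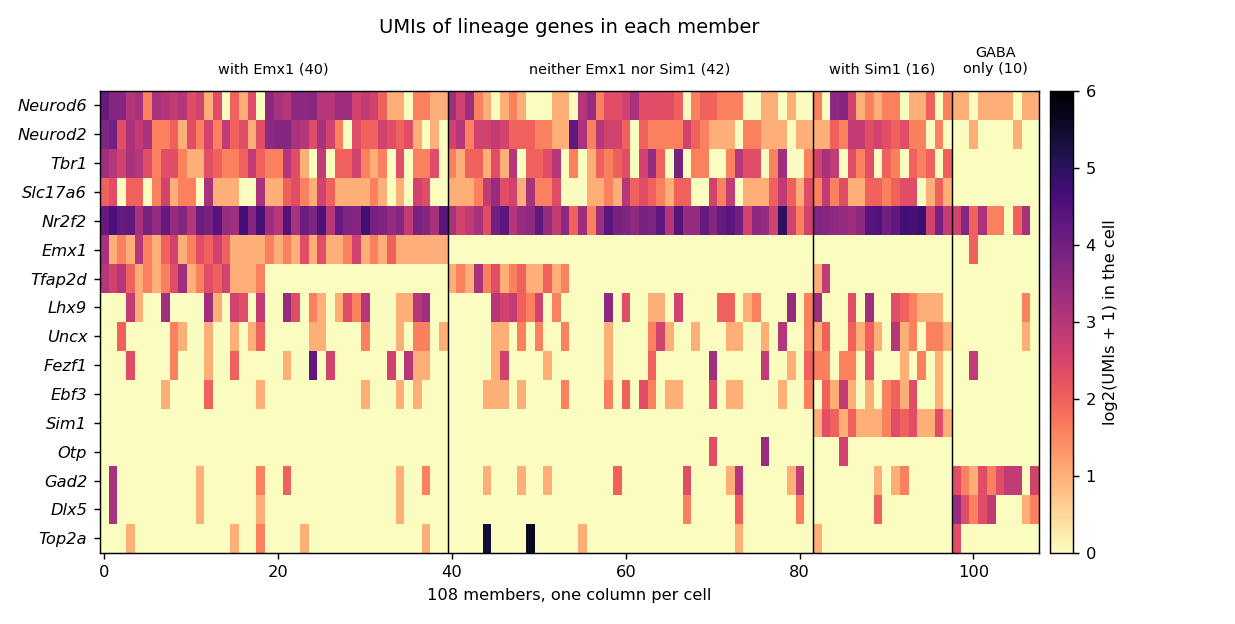
UMIs, as log2(UMIs + 1), of 16 lineage genes (rows) in the 108 members (columns), arranged by content: 40 with Emx1, 42 with neither Emx1 nor Sim1, 16 with Sim1, and 10 (GABA only) with Gad2 or Dlx5 and neither Tbr1 nor Slc17a6, of which 1 also has Emx1. Nr2f2 runs across the first 3 blocks and is also found in 8 of the 10 cells of the last, and Emx1 and Sim1 do not meet in any cell.

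Guidance and adhesion genes were described next. Of 20 axon guidance genes measured against CTX, 6 were higher and 4 lower, beside backgrounds of 5.32% and 3.65% of all genes. Of 19 measured against other CGE high-Dcx cells 7 were higher and 4 lower, beside 3.37% and 2.49%. Efnb3, an ephrin gene, stood at 147 CPM in the members and 22.8 in CTX, and Nrcam, an adhesion gene, at 160 and 37.1 CPM. The semaphorin receptor genes crossed, with Nrp1 at 65.2 against 286 CPM and Nrp2 at 126 against 43.0 CPM. Cxcl12, a chemokine gene, stood at 93.7 CPM in the members, 41.0 in CTX and 0.323 in other CGE high-Dcx cells, and Cntn2, a contactin gene of growing axons, at 218, 266 and 9.11 CPM. Of 8 cadherins and protocadherins measured against CTX, 5 were higher and 1 lower, among them Pcdh9 at 280 against 96.0, Pcdh19 at 120 against 26.8 and Cdh4 at 104 against 23.4 CPM, with Cdh13 lower at 19.4 against 138 CPM. Of 13 neuronal cytoskeleton and maturation genes, 12 were within 2-fold in each comparison, which left Mapt at 605 against 299 CPM in CTX and Rbfox3 at 264 against 69.5 CPM in other CGE high-Dcx cells. Proliferation genes were mostly within 2-fold, 6 of 7 against CTX, with Ccnd2 the exception.

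Nearest neighbours were used to ask which cells the members were most like when the gate genes were left out. For each gate cell of CGE, CTX and LGE, the 20 nearest of the 7616 high-Dcx cells of the 4 libraries were found. Distances were taken in 30 principal components of 2000 variable genes without Dcx, Neurod6 and Neurod2. Other members made up 70.4% of the members' neighbours and 1.42% of the pool. The other CGE high-Dcx cells made up 15.6%, LGE gate cells 7.82% (0.420% of the pool), CTX gate cells 3.38% (9.93% of the pool) and other MGE high-Dcx cells 2.22%. Members gave the most neighbours for 90 of 108 cells (83.3%, 74.9–89.8%), the other CGE high-Dcx cells for 15 and CTX gate cells for 3. All 10 cells with Gad2 or Dlx5 and without Tbr1 and Slc17a6 lay nearest to other CGE high-Dcx cells, which gave 79.5% of their neighbours. The 16 members with 1 gate UMI had 57.2% of their neighbours among other CGE high-Dcx cells. Members with Sim1 had 89.1% and members with Emx1 81.7% of their neighbours among members.

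Members, 1.42% of the pool, gave 43.0% of the neighbours of LGE gate cells. LGE gate cells, 0.420% of the pool, gave 30.8%, and CTX gate cells, 9.93% of the pool, gave 19.4%. Members are the larger class, and relative to its share of the pool the LGE gate cells' own class was more enriched. CTX gate cells had 98.1% of their neighbours among themselves. Since libraries were not integrated, closeness within a library can come from the library or the region, and these cannot be told apart. The members' 7.82% of neighbours from LGE gate cells crosses libraries, and 12 of those 32 cells were marked as predicted doublets.

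**Figure D5:**
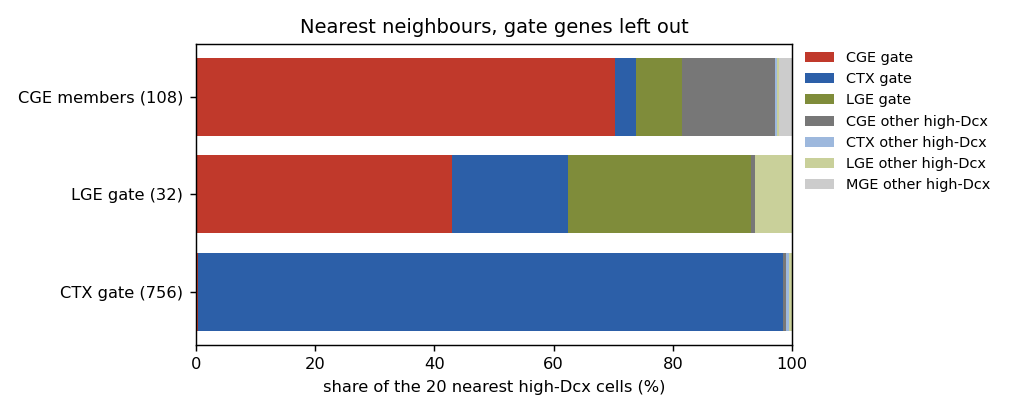
Share (%) of the 20 nearest high-Dcx cells that fell in each class, for the 108 members, 32 LGE gate cells and 756 CTX gate cells; colours give the class of the neighbours. Members give 70.4% of the neighbours of members, 43.0% of those of LGE gate cells and almost none of those of CTX gate cells.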

How the data were processed

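Cells of CTX, LGE, MGE and CGE of wild-type E12.5 mice were profiled by droplet single-cell RNA sequencing, with 1 library for each region. The authors deposited raw UMI counts for each gene and barcode, made with Cell Ranger, version 3.0.2 per the file headers and 3.0.0 per the submitters' processing notes, on mm10 (GRCm38); the annotation release and the strand setting of the counting are not given in the sources used here. Tissue of several embryos was pooled, no region has a replicate library, and the labels place each library in its region.

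Kept barcodes had more than 1500 and fewer than 4500 genes, under 5% mitochondrial and under 1% Hbb UMIs. High-Dcx cells had ln(1 + UMIs per 10000) of Dcx above 1.5, and gate cells also had 1 or more UMIs of Neurod6 or Neurod2. UMIs were summed over cells and scaled to 1000000 (CPM). A gene at 50 CPM or more in either profile was called at a 2-fold ratio after 5 CPM were added. With 1 library for a region no test was run and no p-value is given. Ratios have exact conditional binomial intervals, shares Clopper-Pearson and levels Poisson intervals, all at 95%. A profile at 0 was set at 3 counts for a lower bound. Cells were thinned to 3000 UMIs to compare shares. Doublets were scored against simulated pairs at 0.8% per 1000 barcodes and kept, with removal as an alternative. The calling script was tested on simulated data. The members and gene lists were chosen with earlier results of these data known.

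Named genes were those of the lists, the 12 with the largest ratio in each direction of each comparison, those furthest from both profiles, up to 12 a direction, and the 10 with the largest ratio in members with Tfap2d. Dcx, Neurod6, Neurod2 and mitochondrial, haemoglobin, ribosomal and sex-linked genes were left out of these rankings. Some genes named by this rule are not reported here. Dlx6os1, listed under more than 1 gene ID, was left out of lists counted by symbol. Of 43346 features, 42462 matched GENCODE M21. Python 3.11.15, numpy 2.4.6, scipy 1.17.1, pandas 2.3.3, scikit-learn 1.9.0 and matplotlib 3.10.9 were used. The alternatives were other gates, filters, pseudocounts, thinning and the removal of cells, and the one with Mapt-positive cells alone was chosen after the data were seen.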

Additional observations from a re-analysis of the deposited data

Results flagged for a closer look

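Signals in cells outside the comparisons met the criterion for a closer look in 3 places, and each is given as a value. Tfap2d was found in 9 of the 32 LGE gate cells (28.1%, 13.7–46.7%) and in 0 of the 2166 other LGE high-Dcx cells. Of those 32 cells 12 were marked as predicted doublets, whose part in the share was not tested.

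Among CGE barcodes removed by the quality filters, 36 of 1053 (3.42%, 2.41–4.70%) had a UMI of Neurod6 or Neurod2, against 2 of 4852 kept MGE cells. These 2 groups differ both in region and in passing the filters. Of kept CGE cells, 108 of 2330 high-Dcx cells (4.64%) and 29 of the 918 others (3.16%) had such a UMI. The share in removed CGE barcodes lay between these. Of these 36, 13 had 1500 genes or fewer and 22 had 4500 or more. Slc17a6 was found in 23 of them, Tbr1 in 17, Gad2 in 13 and Tfap2d in 10.

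Among kept CGE cells at or under the Dcx limit, 29 of 918 (3.16%, 2.13–4.51%) had a UMI of Neurod6 or Neurod2. Of 182 high-Nestin CGE cells 1 had, a cell that is itself a member. The groups overlap, since 165 of the 182 are among the 918, and 0 of these 165 had such a UMI. Tbr1 was found in 16 of the 29, Neurog2 in 13, Slc17a6 in 12, Eomes in 9, Top2a in 8 and Emx1 and Gad2 in 5 each. Tfap2d was found in 4 of them.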

How the results depend on the processing

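No paired analysis was possible because each region has 1 library. Under the alternatives, 139 counts and shares stayed within 1.5 times the main count or within the main interval and 32, given here, did not. With genes at 20 CPM or more, 390 genes were higher and 308 lower than in CTX gate cells, 240 and 170 than in other CGE high-Dcx cells, and 91 and 27 than in both. With genes at 100 CPM or more the counts were 119 and 89, 75 and 51, and 33 higher than in both. With no filter they were 582 and 516, 343 and 288, and 134 and 57. The count lower than in both, 10 in the main setting, was 16 with postmitotic cells, 17 after thinning and 22 without cells with Gad2 or Dlx5. With 2 gate UMIs the shares were 81.5% for Tbr1, 83.7% for Slc17a6 and 17.4% for Gad2 or Dlx5, and 92.4% of members lay nearest to members and 4.35% to other CGE high-Dcx cells. Thinning gave 56.5% for Tbr1, 47.2% for Slc17a6, 19.4% for Tfap2d and 23.1% for Emx1. Tbr1 stood at 82.5% without cells with Gad2 or Dlx5, Emx1 at 50% of 56 postmitotic members, and Otp at 0 of 71 members with the Dcx limit at 2.0 (0%). Apart from the filters and thinning, which change the genes tested or the depth by construction, the causes were not tested. Of 85 values of named genes, 79 kept their side of 2-fold under all 16 alternatives, 6 came within 2-fold in at least 1, and 0 changed direction. Against other CGE high-Dcx cells these were Efnb2 (7 alternatives), Abracl (postmitotic and Mapt-positive cells), Ccnd2 (postmitotic cells, which are gated on it) and Robo2 (thinning), and against CTX gate cells Ccnd2 (postmitotic cells) and Robo2 (Mapt-positive cells). Of the 54 genes higher than in both, 33 to 54 were again so under the 16 alternatives, with 33 at 100 CPM or more. Depth limits genes such as Otp and Sim1, whose levels rest on 19 and 35 UMIs.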
